A study of Mus musculus with 24 samples.

Results

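The genes described here are those whose response to loss of Trim28 differed between regulatory T cells (Treg) and unstimulated naive CD4 T cells. The difference was taken as the CKO minus WT change in Treg less the CKO minus WT change in naive cells, on 4 arrays in each of 4 groups. It was computed for all 16350 genes tested, and 67 of them (0.41%) passed limma's test at a Benjamini-Hochberg adjusted p under 0.05, which is what "called" means throughout. By which cell type's own change was called, the 67 genes fell into 20 with a change called in Treg and not in naive cells, 25 with a change called in naive cells and not in Treg, 2 with opposite changes called in both, and 20 with changes of the same sign but unequal size in both.

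RNA was taken from sorted T cells of female C57BL/6 mice. CKO mice carry a Trim28 deletion restricted to T cells, and WT mice were the controls. Ages were 6, 6, 6 and 7 weeks in WT naive, CKO naive and WT Treg samples and 7, 6, 6 and 7 weeks in CKO Treg and stimulated samples. The labels do not name the promoter that drives the deletion. Naive cells were sorted as CD4+, CD62+ and CD25-, and Treg as CD4+, CD62+ and CD25+. A further pair of groups, naive cells of each genotype kept for 13 h on plate-bound anti-CD3 and anti-CD28, had no term in the difference. Their 8 arrays were in the same fit and shared its filter and its estimate of the spread, and without them 57 genes were called, 51 of the 67 among them. Nothing in the labels says that the 4 samples of a group came from separate mice. P-values therefore reflect only the spread among the samples at hand, and that spread may be technical.

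Trim28 encodes a scaffold that KRAB zinc finger proteins bring to DNA. It gathers the histone methyltransferase Setdb1, heterochromatin proteins and deacetylases there, and it is best known for silencing retroelements and the genes next to them. Treg are CD4 T cells that hold immune responses in check under the transcription factor Foxp3, and they express the IL-2 receptor chain Il2ra (CD25) at rest, whereas naive cells express it only after stimulation.

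The deleted gene fell in both cell types, 2.85-fold in naive cells and 2.95-fold in Treg. Trim28 read between 2.27 and 2.52 on the WT naive arrays and between 0.53 and 1.23 on the CKO naive arrays, in log2 units relative to each array's 75th percentile, the scale of every level below. In Treg it read 1.76 to 2.19 in WT and 0.16 to 0.63 in CKO, and the 2 changes, -1.51 in naive cells and -1.56 in Treg, differed by -0.05 ± 0.24 (SE; limma adjusted p = 0.943). Foxp3 read 3.04 to 3.54 on the 8 Treg arrays and -3.21 to -1.44 on the 8 naive arrays, with no overlap between the sorted cell types. Signal strength did not match between the groups: the array's 75th percentile was 170.5 to 301.7 intensity units for naive cells, 55.59 to 208 for WT Treg and 32.55 to 118.7 for CKO Treg. Between 43.16% and 61.25% of an array's probes stood well above background. The part of that gap in the results was not tested.

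The label of treatment reads stimulated for the 4 CKO Treg samples and unstimulated for the 4 WT Treg samples, while the series describes stimulation of naive cells alone. Genes that respond to the T cell receptor were therefore read, chosen after their values were seen. Il2 was well above background on none of the 4 CKO Treg arrays (-5.99 to -4.56) and on all 8 arrays of stimulated cells (-0.64 to 0.70). The stimulated cells were naive cells, and no WT Treg array had Il2 well above background either. Il2 therefore cannot tell whether the CKO Treg were stimulated. Irf4 read -0.06 to 0.45 in CKO Treg, 0.32 to 1.17 in WT Treg and 4.16 to 4.82 in stimulated cells. The mean level of 26 genes of T cell activation was 2.283 to 2.435 in CKO Treg, 2.287 to 2.595 in WT Treg and 2.807 to 3.28 in stimulated cells. The summed level of these 26 genes, taken without logs, was instead lower in stimulated cells. It was 1060 to 1280 in CKO Treg and 1170 to 1470 in WT Treg. Stimulated cells gave 724 to 783 in WT and 671 to 972 in CKO. On Irf4 and the 26 genes CKO Treg lay with WT Treg and apart from stimulated naive cells. No Treg known to be stimulated were measured, so whether the CKO Treg were stimulated was not tested.

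More genes were called in naive cells, and a larger share of those called in Treg alone had a called difference. P-values were adjusted within each comparison, so with more calls the cutoff was looser in naive cells. Krt86 was called there at 0.99 ± 0.35 (limma adjusted p = 0.0497), while Cybrd1 in Treg was not at -0.69 ± 0.22 (0.0884). The counts and classes depend on these unequal cutoffs, whose part was not tested. CKO and WT differed for 3092 genes in naive cells (18.9%; 7.81% of genes rose and 11.1% fell) and for 725 in Treg (4.43%; 2.59% rose and 1.85% fell). Among the 2668 genes called in naive cells and not in Treg, only 25 (0.937%) had a called difference between the cell types, against 20 of the 301 called in Treg and not in naive cells (6.64%). A change called in 1 cell type and missed in the other was in most cases not shown to differ between them. Of the genes called in both, 422 changed in the same direction and 2 in opposite directions. The count in naive cells rested on single arrays: it was 1388 without WT naive replicate 2, 1600 without WT naive replicate 3, 1586 and 1654 without CKO naive replicates 2 and 3, and 4601 without WT naive replicate 4.

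The fitted size of the called differences had a median of 2.10 and a range of 0.65 to 6.23 on the log2 scale. The call itself favours large values (the median SE was 0.313), and 27 of the 67 had a group with no array well above background, so that their sizes are fitted and not measured. In 41 genes (0.251% of those tested) the change in Treg lay above that in naive cells and in 26 (0.159%) below. All 67 had the same direction on each of the slides that held arrays of all 4 groups, which are among the arrays that made the call. Without WT naive replicate 4 the count rose to 389, all 67 among them. That array had a mean level of the 26 activation genes of 2.356, against 1.633 to 1.767 on the other 3 WT naive arrays and 2.063 to 2.337 in CKO naive cells, and the lowest weight of all 24 arrays (0.32). Its part in the result was not tested beyond leaving it out. In these bulk samples fewer cells of a type and less RNA per cell cannot be told apart.

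**Figure D1:**
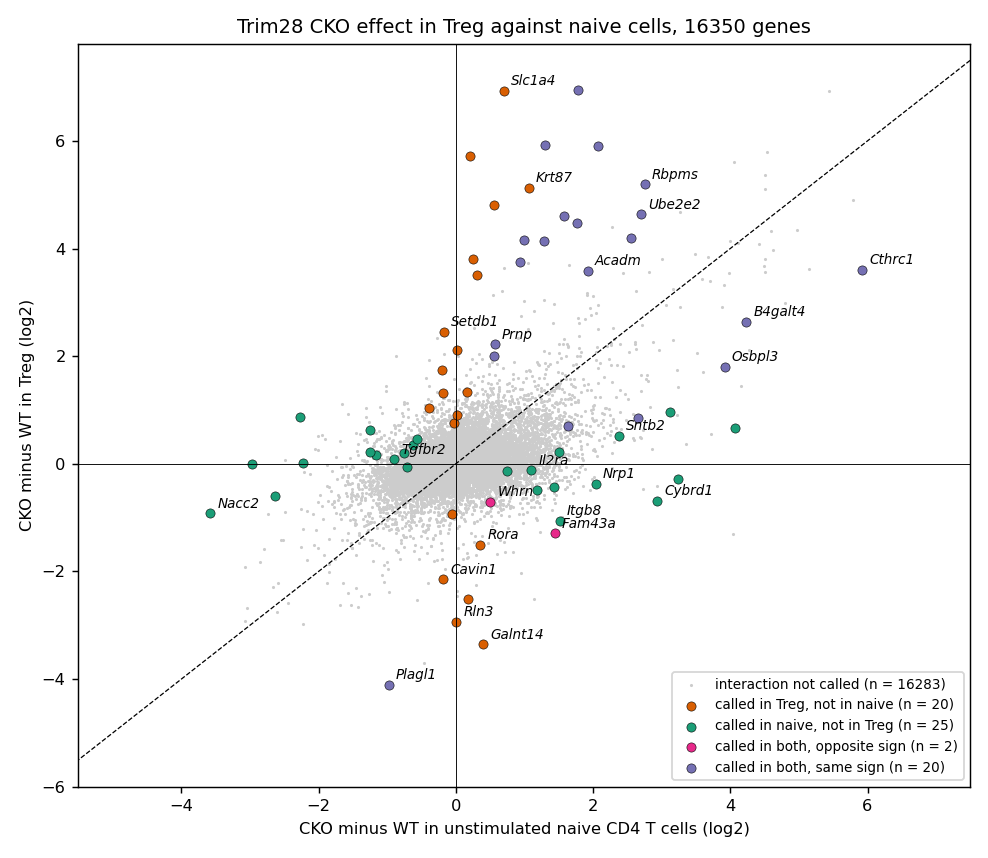
CKO minus WT change of each of 16350 genes in naive cells (horizontal axis, log2) against that in Treg (vertical axis, log2), 4 arrays per group. Coloured points are the 67 genes with a called difference and the dashed line marks equal change. Slc1a4, at 6.93 in Treg and 0.70 in naive cells, has the largest fitted difference, from a WT Treg group with no array well above background.

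Slc1a4, which encodes a transporter of neutral amino acids such as alanine, serine and cysteine, had the largest fitted difference. It read 1.22, 1.12, 1.63 and 1.60 on the 4 CKO Treg arrays and was well above background on none of the 4 WT Treg arrays (-6.26 to -4.57). In naive cells it read -4.65 to -3.15 in WT and -3.86 to -2.93 in CKO. CKO Treg stood above every other array of the study, stimulated cells included, and the naive groups overlapped. The rise in Treg was at least 52.5-fold, a bound set against the lowest signals that the WT Treg arrays could tell from background, with a limma adjusted p of 1.01e-11. The change in naive cells was 0.70 (95% interval 0.00 to 1.40, adjusted p = 0.144). A second probe gave a difference of 5.74, close to the 6.23 of the first.

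Setdb1 encodes the histone H3 lysine 9 methyltransferase that Trim28 recruits. It was the 1 called gene among 31 measured partners of Trim28 and heterochromatin genes (0.41% of all genes tested were called). That list was chosen with earlier results of these data known. Setdb1 levels were -1.91 to -1.60 in WT Treg and 0.42, 0.57, 1.03 and 0.51 in CKO Treg. Naive arrays gave -2.24 to -1.41 in WT and -2.01 to -1.51 in CKO. All 4 CKO Treg arrays stood above the other 12, and the naive genotypes overlapped. Setdb1 rose 5.48-fold in Treg (adjusted p = 6.19e-08), the change in naive cells was -0.17 (95% interval -0.60 to 0.26), and the difference was 2.62 ± 0.30 (adjusted p = 5.76e-05). A second probe gave 4.69 in Treg and 1.34 in naive cells, so it kept the direction but put a rise in naive cells too (its own difference 3.35 ± 0.76, adjusted p = 0.0643 over all probes). In stimulated cells Setdb1 rose 1.66-fold (adjusted p = 0.016).

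Further genes rose in Treg from signals that could not be told from background. Krt87, a hair keratin, read -0.52 to -0.05 in CKO Treg and was well above background on no WT Treg array, a rise of at least 16.8-fold; in naive cells the change was 1.06 (95% interval 0.06 to 2.07, adjusted p = 0.125). The related hair keratin Krt86 belonged to the class called in both, with a 17.9-fold rise in Treg and at least a 1.27-fold rise in naive cells. Hair keratins are close in sequence, and their probes may not tell the 2 transcripts apart. Cgnl1, a protein of epithelial junctions, rose at least 8.84-fold in Treg and Rdh16f2, a retinol dehydrogenase family member, at least 2.37-fold. For both, neither naive group had an array well above background, so a naive change could not be measured. With a signal floor the difference for Rdh16f2 was 0.00 (adjusted p = 1).

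Among genes readable in all 4 groups, 5 more rose in Treg and were not called in naive cells. Dock9, an activator of the small GTPase Cdc42, read 1.66 to 2.08 in WT Treg and 2.64 to 3.55 in CKO Treg, a 2.49-fold rise, while naive cells read 1.18 to 1.81 in WT and 1.18 to 1.52 in CKO. Zscan12, a zinc finger gene, rose 1.87-fold, and Tpm4, an actin-binding tropomyosin, 1.70-fold. Their naive changes were 0.03 (95% interval -0.22 to 0.28) and -0.02 (-0.26 to 0.22), inside 1 log2 unit of 0. The fourth is known only by a provisional name. Tpm4 lost its call when any of 11 arrays was left out, and Dock9 when its 2 probes were averaged (1.19, adjusted p = 0.145). The call for Zscan12 ended without a filter on dim probes (adjusted p = 0.07) and with the 16 arrays fitted alone (adjusted p = 0.064).

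The fifth, Kcnmb4, is a regulatory subunit of calcium-activated potassium channels, and its antisense transcript Kcnmb4os2 was called with it. Their annotated spans share 697 bases. Kcnmb4 rose 2.06-fold in Treg (-0.27 to 0.46 in WT, 0.59 to 1.25 in CKO), and its naive change was -0.39 (95% interval -0.76 to -0.02, adjusted p = 0.129). The antisense transcript rose at least 2.82-fold in Treg and changed by 0.01 (-0.52 to 0.55) in naive cells. In stimulated cells both rose, Kcnmb4 2.39-fold and Kcnmb4os2 4.18-fold. The difference for Kcnmb4os2 was no longer called with normexp background correction (0.39, adjusted p = 0.104) or with a signal floor (0.13, adjusted p = 0.761). Plekha6, a protein with a pleckstrin homology domain, rose at least 1.99-fold in Treg and lost its call without CKO naive replicate 1, WT Treg replicate 4 or CKO Treg replicate 4 (adjusted p = 0.0592, 0.0521 and 0.0554), after quantile normalization (0.0528) and with normexp correction (0.119). With a signal floor the difference for Plekha6 was 0.00.

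The 6 genes that fell in Treg and were not called in naive cells were all called higher in Treg than in naive cells of WT mice, as were 18.8% of all genes tested. The WT arrays of that gap also chose the genes, so it describes them and tests nothing. Rora, a nuclear receptor of effector and tissue Treg programs, read 0.54, 0.68, 0.56 and 0.86 in WT Treg and -0.63, -0.76, -0.68 and -1.30 in CKO Treg. Naive cells read -2.06 to -0.95 in WT and -1.36 to -0.80 in CKO. CKO Treg lay below every WT Treg array. Of its 4 arrays 1 fell inside the range of the naive arrays and the other 3 just above it. The fall was 2.84-fold (adjusted p = 0.000111), the naive change 0.35 (95% interval -0.10 to 0.81), and the difference -1.86 ± 0.31 (adjusted p = 0.00416). Of its 3 probes, 1 gave a like change in Treg (-1.43) but also a naive change of -1.14, so that its difference was -0.30.

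Cavin1, a coat protein of caveolae, fell 4.43-fold, from levels of -0.82 to 0.14 in WT Treg to -2.64 to -1.88 in CKO Treg. In naive cells it read -3.69 to -3.09 in WT and -3.69 to -3.29 in CKO, a change of -0.18 (95% interval -0.59 to 0.22). Rln3, a peptide hormone of the relaxin family, fell 7.64-fold in Treg and changed by 0.01 (-0.73 to 0.75) in naive cells. Galnt14, an enzyme that starts O-glycosylation, fell at least 5.40-fold and Spag16, a protein of the ciliary axoneme, at least 1.24-fold, with no naive array of either genotype well above background for Spag16. With a signal floor the difference for Spag16 was 0.00 (adjusted p = 1). Ppm1l, a protein phosphatase, fell 1.90-fold, but it lost its call when any of 13 arrays was left out.

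**Figure D2:**
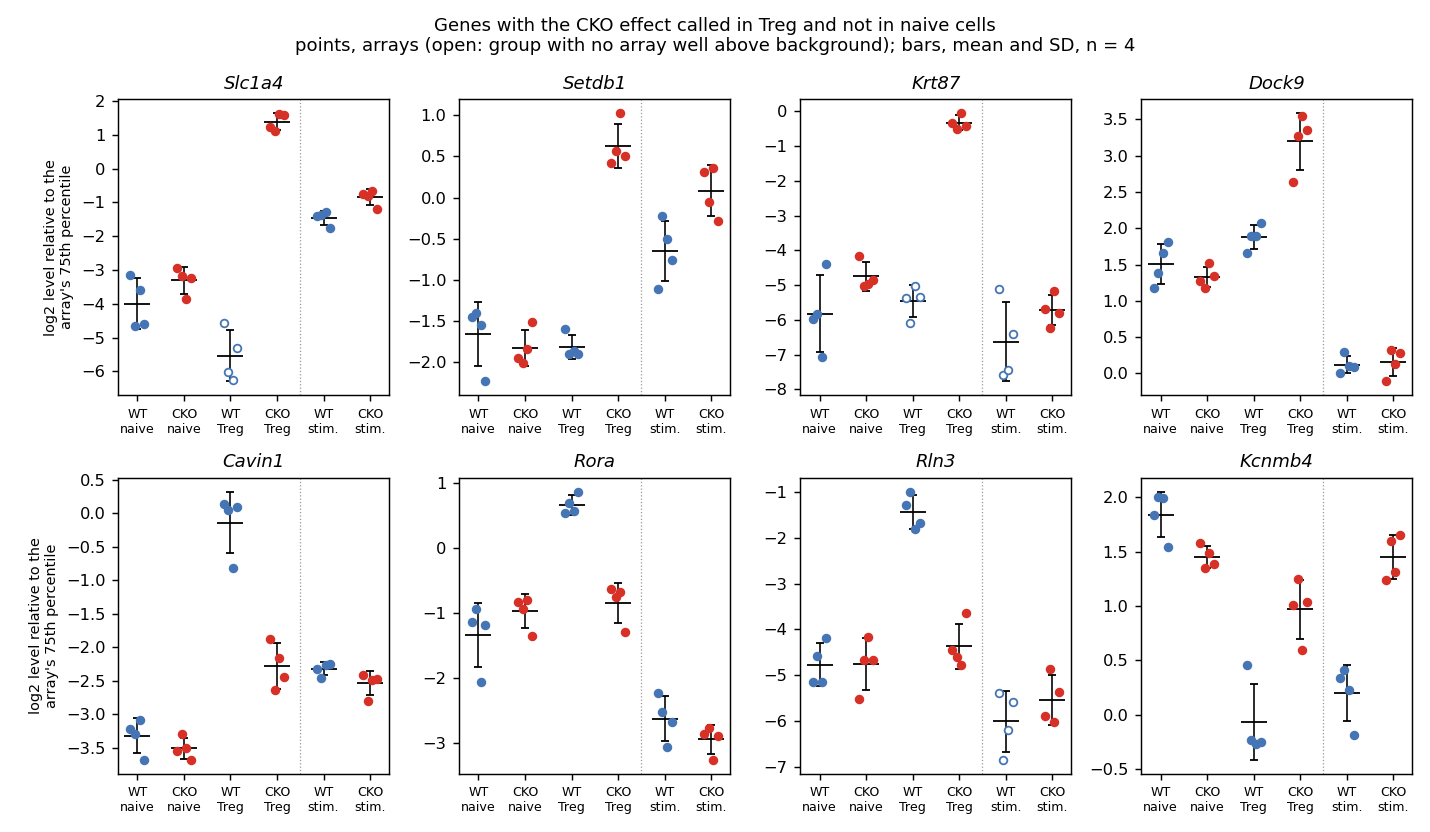
Levels of 8 genes with a change called in Treg and not in naive cells, in log2 units relative to the array's 75th percentile, for the 4 arrays of each group (points), with mean and SD. For Slc1a4 and Setdb1 the 4 CKO Treg arrays lie above all other arrays, and for Rora they lie from -1.30 to -0.63, below the WT Treg arrays.

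The 12 genes that rose in naive cells and were not called in Treg were mostly genes that WT Treg already expressed more: 10 of the 12 were called higher in WT Treg than in WT naive cells. Ntng1 also had a fitted gap above 0 (0.91, limma adjusted p = 0.151), but neither WT group had an array well above background for it. Of all genes tested, 48.8% were called between WT Treg and WT naive cells (18.8% higher in Treg and 30% lower), and 28.3% between the CKO groups. The median gap between WT Treg and WT naive cells was 2.46 for the 12 and 0.84 between the CKO groups. Both gaps share arrays with the difference that chose the genes, so they describe it and do not test it. Foxp3 itself rose 1.94-fold in CKO naive cells (adjusted p = 0.0036) and 5.47-fold in stimulated cells, although the difference between the cell types was not called (-0.86 ± 0.28, adjusted p = 0.215). The part of cells that carry Foxp3 inside the naive gate was not tested.

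Il2ra encodes the CD25 chain on which the cells were sorted, so its gap between cell types was set by the sort. Within the CD25- gate it read -4.74 to -4.22 in WT and -3.69 to -3.16 in CKO, a 2.14-fold rise (adjusted p = 0.00011). In Treg the levels were 2.54 to 3.32 and 2.56 to 2.96, a change of -0.12 (95% interval -0.45 to 0.22). The naive genotypes did not overlap and the Treg genotypes did. The difference was -1.21 ± 0.23 (adjusted p = 0.0107), but the naive signals are dim. With normexp correction it was -0.26 (adjusted p = 0.429), with a signal floor -0.12 (adjusted p = 0.864), and with the 16 arrays fitted alone its adjusted p was 0.0554. All 4 probes of Il2ra gave a negative difference, from -2.03 to -0.55.

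Nrp1, a semaphorin and VEGF co-receptor found on Treg of thymic origin, rose 4.11-fold in naive cells. It read -4.88 to -4.04 in WT naive, -3.04 to -1.58 in CKO naive, -0.43 to 0.30 in WT Treg and -0.84 to -0.31 in CKO Treg. CKO naive arrays lay between WT naive and Treg arrays, without overlap with either. The change in Treg was -0.37 (95% interval -1.05 to 0.31) and the difference -2.41 ± 0.46 (adjusted p = 0.0129). In stimulated cells Nrp1 rose 3.94-fold (adjusted p = 0.000266). All 3 probes agreed in direction. Its call ended with normexp correction (-0.79, adjusted p = 0.0975) and with a signal floor (-0.86, adjusted p = 0.306).

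Cybrd1, a ferric reductase of the cell membrane, read -1.32, -1.80, -1.64 and -1.96 in CKO naive and -4.82 to -4.37 in WT naive cells, a 7.66-fold rise. In Treg the order was turned, at -2.61 to -2.23 in WT and -3.63 to -2.68 in CKO, a change of -0.69 (95% interval -1.15 to -0.23) that was not called (adjusted p = 0.0884). Both pairs of groups were apart, in opposite directions. The difference was -3.63 ± 0.31 (adjusted p = 8.86e-07), and Cybrd1 was among the genes that rose in stimulated cells, at least 1.67-fold.

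Prodh, the mitochondrial enzyme that starts proline breakdown, rose 2.84-fold in naive cells, from -1.89 to -1.54 up to -0.52 to 0.05. Its Treg levels of 0.14 to 0.59 in WT and 0.40 to 0.85 in CKO overlapped, a change of 0.22 (95% interval -0.09 to 0.53). Sntb2, a syntrophin that anchors membrane proteins, was the 1 gene of the 12 with less signal in WT Treg than in WT naive cells. It rose 5.20-fold in naive and 3.5-fold in stimulated cells and changed by 0.52 (-0.08 to 1.12) in Treg, and its difference lost its call when any of 14 arrays was left out. Ntng1, a netrin-related membrane protein, rose at least 4.19-fold in naive cells and was well above background on no Treg array of either genotype. Its difference lost its call when any of 10 arrays was left out. Kif7, a kinesin of the Hedgehog pathway, rose 2.28-fold, but lost its call without CKO naive replicate 3 (adjusted p = 0.0511), after quantile normalization (0.075) and with normexp correction (0.373). With a signal floor the difference for Kif7 was -0.01. Trps1, a GATA-type repressor, rose 1.68-fold and lost its call when any of 11 arrays was left out. For Itgb8, an integrin chain that activates TGF-beta, the rise called in naive cells lay in signals that none of the 8 naive arrays told from background. Its Treg levels were -0.87 to -0.13 in WT and -2.07 to -1.03 in CKO, a change of -1.06 (95% interval -1.77 to -0.35, adjusted p = 0.0924). Its call ended when its 4 probes were averaged (-1.62, adjusted p = 0.0674).

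The 13 genes that fell in naive cells and were not called in Treg showed the reverse order in WT cells: all 13 were lower in WT Treg than in WT naive cells, 12 of them called. The median gap was -1.55 between the WT groups and -0.07 between the CKO groups, again on the arrays that chose the genes. Tgfbr2, the receptor chain that binds TGF-beta, read 5.60, 5.55, 5.64 and 5.50 in WT naive cells and 4.81, 4.54, 4.66 and 4.68 in CKO naive cells. Treg gave 3.76 to 4.33 and 3.94 to 4.22, which overlapped. The fall in naive cells was 1.86-fold (adjusted p = 3.81e-05), the change in Treg 0.09 (95% interval -0.16 to 0.34), and the difference 0.99 ± 0.17 (adjusted p = 0.00511). In stimulated cells Tgfbr2 rose 1.28-fold, the only gene of the 13 called in the other direction there. Its 3 probes disagreed, with differences of 0.99, 0.66 and -0.51, and their mean was not called (0.38, adjusted p = 0.368).

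Nacc2, a transcriptional repressor with a BTB domain, read 0.21 to 0.77 in WT naive cells and -3.92 to -2.63 in CKO naive cells, a 12-fold fall. In stimulated cells it fell 4.48-fold. WT Treg read -5.24 to -4.37, well above background on 2 arrays, and CKO Treg on none, which leaves a change in Treg unmeasured. Its difference of 2.67 ± 0.46 (adjusted p = 0.00511) was 2.31 (adjusted p = 0.0535) after quantile normalization. Klhdc2, a substrate receptor of a ubiquitin ligase, fell 2.38-fold in naive cells, from 1.43 to 2.00 down to 0.31 to 0.64, and changed by 0.21 (95% interval -0.15 to 0.57) in Treg. Its call ended when its 2 probes were averaged (0.99, adjusted p = 0.256). Repin1, a zinc finger protein, fell at least 1.48-fold in signals near background, and lost its call when any of 5 arrays was left out. Its difference was 0.14 with normexp correction (limma adjusted p = 0.334) and 0.00 with a signal floor, not called in either.

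Smaller falls in naive cells were called for Ibtk, an inhibitor of the kinase Btk (1.63-fold), Ethe1, a mitochondrial sulfur dioxygenase (1.53-fold), and Rras2, a Ras-related GTPase (1.48-fold). Their changes in Treg were -0.05 (95% interval -0.26 to 0.15), 0.36 (0.05 to 0.67) and 0.47 (0.14 to 0.80), none of them called. These 3 calls were unsteady: they were lost when any of 12, 11 and 10 arrays was left out. Other probes of Rras2 gave naive changes of 0.22 and -0.22. With the probes of Rras2 averaged its difference was 0.67 and not called (limma adjusted p = 0.227).

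The number of genes that fell or rose in naive cells alone depended on single arrays. It was 286 without WT naive replicate 4, 42 without WT Treg replicate 1 and 14 without CKO naive replicate 3, against 25 with all arrays. The number called in Treg alone was 65 without WT naive replicate 4 and 19 to 30 without any other array.

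**Figure D3:**
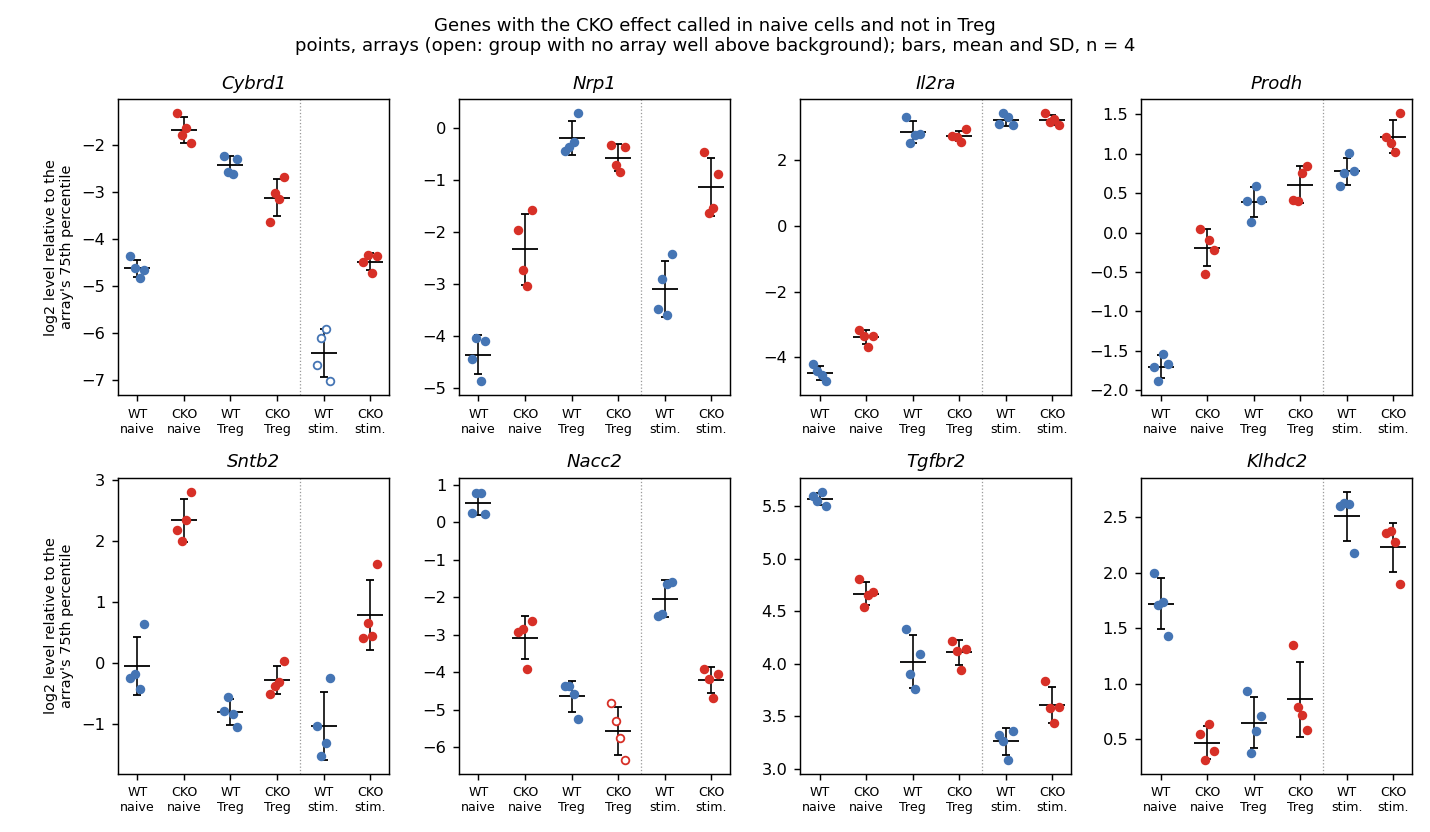
Levels of 8 genes with a change called in naive cells and not in Treg, drawn as before (log2 units, points for the 4 arrays of a group, mean and SD). CKO naive arrays of Nrp1 and Prodh lie between WT naive and Treg arrays, and for Tgfbr2 the fall from 5.50 to 5.64 down to 4.54 to 4.81 is seen in naive cells while the Treg arrays overlap.

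Opposite changes were called for 2 genes. Fam43a, a gene of little known function, read -2.54, -1.64, -2.47 and -1.51 in WT naive and -0.27, -0.09, -0.50 and -1.52 in CKO naive cells, a 2.72-fold rise. In Treg it read -1.13, -1.18, -1.42 and -1.37 in WT and -3.16, -2.24, -2.16 and -2.71 in CKO, a 2.45-fold fall. The naive groups met at a single array of each genotype, and the Treg groups did not overlap. The difference was -2.73 ± 0.49 (adjusted p = 0.00789). Whrn, a scaffold of stereocilia and synapses, rose 1.42-fold in naive cells (0.32 to 0.93 in WT, 1.11 to 1.32 in CKO) and fell 1.63-fold in Treg (2.61 to 2.92 in WT, 1.77 to 2.40 in CKO). Neither pair overlapped, and the difference was -1.21 ± 0.21 (adjusted p = 0.0055). A second probe of Whrn gave 0.91 in naive cells and -0.78 in Treg. In stimulated cells Whrn rose 1.41-fold (adjusted p = 0.021) and Fam43a changed by 0.18 (adjusted p = 0.739). Opposite changes were called in both cell types for 6 genes without WT naive replicate 4. They were called for 1 without WT naive replicate 3, CKO naive replicate 2 or 3, or WT Treg replicate 1, 2 or 3.

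In the last class both cell types changed the same way and the size differed. Of these 20 genes, 19 rose and 15 had the larger change in Treg. In 9 of the 20 some group had no array well above background, so that changes against it are fitted and not measured. Plagl1, an imprinted zinc finger gene, was the 1 that fell. It read 2.55, 2.27, 2.15 and 2.26 in WT Treg and -2.16, -2.04, -1.26 and -1.72 in CKO Treg, a 17.2-fold fall. Naive cells stood far lower, at -4.55 to -3.17 in WT and -5.24 to -4.26 in CKO, with a 1.97-fold fall called there (adjusted p = 0.0232). The naive groups overlapped. The difference was -3.12 ± 0.40 (adjusted p = 0.000328). A second probe gave -4.73 in Treg and -0.17 in naive cells, so that the fall in naive cells rests on 1 probe. In stimulated cells Plagl1 fell 2.57-fold.

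Acadm, the medium-chain acyl-CoA dehydrogenase of fatty acid oxidation, and Rabggtb, a subunit of the enzyme that adds geranylgeranyl groups to Rab proteins, are neighbours on the same strand of chromosome 3. Their starts lie 31677 bases apart and RefSeq's order places no other protein-coding gene between them. Of the 67 genes 57 could be placed, and the neighbours among them were this pair and Kcnmb4 with its antisense transcript. The 250 bases before each start are shown because the 2 genes moved together, with each CG pair in capitals, from RefSeq on GRCm38.p6, minus strand, at chr3:153944644-153944893 for Acadm and chr3:153912967-153913216 for Rabggtb.
Acadm: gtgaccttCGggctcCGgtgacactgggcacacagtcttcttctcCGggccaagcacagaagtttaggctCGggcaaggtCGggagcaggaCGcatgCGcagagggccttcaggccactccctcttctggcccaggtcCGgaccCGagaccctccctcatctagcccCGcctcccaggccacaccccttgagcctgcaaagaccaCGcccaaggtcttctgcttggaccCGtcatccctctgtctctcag
Rabggtb: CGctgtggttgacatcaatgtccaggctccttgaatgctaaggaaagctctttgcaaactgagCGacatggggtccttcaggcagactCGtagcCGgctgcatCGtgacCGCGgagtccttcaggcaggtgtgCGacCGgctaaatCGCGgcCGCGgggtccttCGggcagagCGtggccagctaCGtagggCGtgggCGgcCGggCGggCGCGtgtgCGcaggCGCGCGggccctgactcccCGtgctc
The window of Acadm held 12 CG pairs and that of Rabggtb 27, against a median of 6 over 32851 promoter windows of this length. The GC box GGGCGG was found on either strand at 2 places before Rabggtb and at none before Acadm, and 32.7% of windows hold it. Neither held TATAAA, which 12.4% of windows do.

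Acadm read 2.32 to 3.02 in WT naive, 4.65 to 4.72 in CKO naive, 1.94 to 2.46 in WT Treg and 5.77 to 6.08 in CKO Treg cells. It rose 3.80-fold in naive cells, 12-fold in Treg and 4.22-fold in stimulated cells, and the genotypes did not overlap in any of the 3. The difference between Treg and naive cells was 1.66 ± 0.22 (adjusted p = 0.000328). Rabggtb read 1.62 to 2.16 and 2.19 to 2.74 in naive cells, and 1.47 to 1.81 and 3.48 to 3.76 in Treg, with rises of 1.48-fold and 4.02-fold. Its difference was 1.45 ± 0.21 (adjusted p = 0.0012). In stimulated cells Rabggtb changed by 0.14 (adjusted p = 0.502).

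Ube2e2, a ubiquitin-conjugating enzyme, read -1.77 to -1.19 and 0.68 to 1.35 in naive cells and -2.75 to -1.66 and 2.29 to 2.67 in Treg, with rises of 6.52-fold and 24.8-fold. Its second probe gave a smaller difference (0.61 ± 0.54) than the first (1.93 ± 0.34). Prnp, the prion protein, rose 4.68-fold in Treg and 1.48-fold in naive cells. Gstt4, a glutathione S-transferase, rose at least 10.4-fold in Treg and 5.85-fold in naive cells, and its call ended when its probes were averaged (1.25, adjusted p = 0.122). Rbpms, an RNA-binding protein, rose at least 17.3-fold in Treg and 6.73-fold in naive cells, and lost its call when any of 8 arrays was left out. A second probe of Rbpms gave 3.13 in Treg and 2.29 in naive cells. With its probes averaged the difference was 1.64 and not called (limma adjusted p = 0.132). Cables1, a regulator of cyclin-dependent kinases, rose 22.3-fold in Treg and 3.40-fold in naive cells; without CKO naive replicate 3 or WT Treg replicate 3 its difference was not called. Larger rises in Treg were also called for Abca5, a lipid transporter (13.5-fold), Yes1, a Src family kinase (at least 10.3-fold), and Adad2, a germ cell protein (at least 19.1-fold). A second probe of Yes1 gave 0.08 in naive cells. For Adad2 no naive array of either genotype was well above background, and a second probe gave 0.74 there. The probe used for Abca5 gave 0.94 in naive cells and a difference of 2.82. Its other probes gave larger naive rises (1.90, 2.48 and 2.65) and smaller differences (1.68, 1.26 and 1.79, limma adjusted p = 0.256, 0.214 and 0.0442 over all probes).

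The other 5 genes rose more in naive cells. Osbpl3, a lipid transfer protein, read -3.67 to -2.15 and 0.93 to 1.30 in naive cells and 0.29 to 0.88 and 2.25 to 2.54 in Treg. Its rise was 15.1-fold in naive cells and 3.49-fold in Treg, and the difference -2.12 ± 0.33 (adjusted p = 0.00276), or -0.56 (adjusted p = 0.22) with normexp correction. B4galt4, a galactosyltransferase, rose 18.8-fold in naive cells and 6.25-fold in Treg. It lost its call without CKO naive replicate 1 or CKO Treg replicate 2 or 4. The call also ended under quantile normalization, on the authors' values and with the 16 arrays fitted alone. With normexp correction the difference for B4galt4 was -0.45 (limma adjusted p = 0.21). The gene next to it, Upk1b, a tetraspanin of the bladder lining with 4127 bases between the annotated spans, rose 173-fold in naive cells and at least 202-fold in Treg, and its difference of 1.51 ± 0.64 was not called (adjusted p = 0.316). Without WT naive replicate 3 that difference was 2.22 (adjusted p = 0.0046), and it was also called with normexp correction (0.94, adjusted p = 0.00097) and with a signal floor (0.65, adjusted p = 0.00609). Cthrc1, a secreted collagen-repeat protein, rose at least 16.4-fold in naive cells and at least 3.26-fold in Treg. Rbpms2, a paralogue of Rbpms, rose 6.32-fold and 1.80-fold, the reverse of the order in Rbpms. Gprin3, a G protein-regulated protein, rose 3.09-fold and 1.62-fold, and lost its call when any of 8 arrays was left out. Without CKO naive replicate 3 or CKO Treg replicate 2 the class held 13 genes in place of 20, and 30 without WT naive replicate 4.

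**Figure D4:**
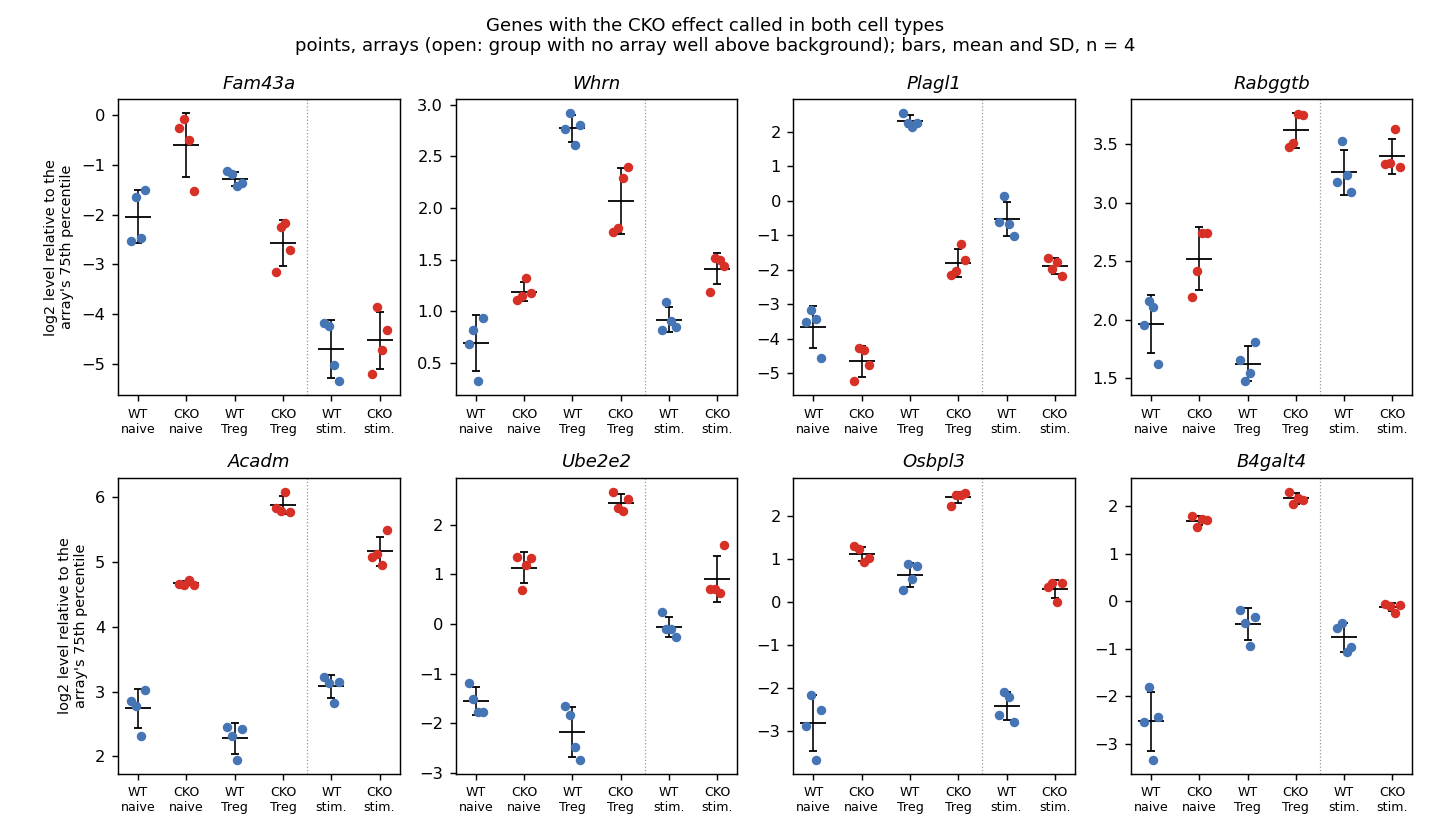
Levels of 8 genes with changes called in both cell types, drawn as before (log2 units, 4 arrays per group, mean and SD). Fam43a and Whrn rise in naive cells and fall in Treg, Plagl1 falls mainly in Treg, Rabggtb, Acadm and Ube2e2 rise more in Treg, and Osbpl3 and B4galt4 rise more in naive cells.

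The change in stimulated cells, which is no term of the difference but comes from the same fit, was called for unequal shares of the classes. There 24.3% of all genes tested were called, 11.7% higher and 12.6% lower in CKO. Of the 20 genes with the same direction in both resting cell types, 17 were called (85%), each with that direction. Of the 25 genes called in naive cells alone, 12 were called (48%), and 11 of these had the direction seen in resting naive cells. Among the 12 that rose, 7 rose again and none fell. Among the 13 that fell, 4 fell again and Tgfbr2 rose. Of the 20 called in Treg alone, 6 were called (30%, near the share of all genes), all with the direction seen in Treg: 5 that rose, Setdb1, Kcnmb4 and Kcnmb4os2 among them, and Galnt14, which fell 3.87-fold. Another of the risers, Plekha6, was well above background on none of the 8 arrays. Shares were compared with all genes tested as a description, without a test.

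**Figure D5:**
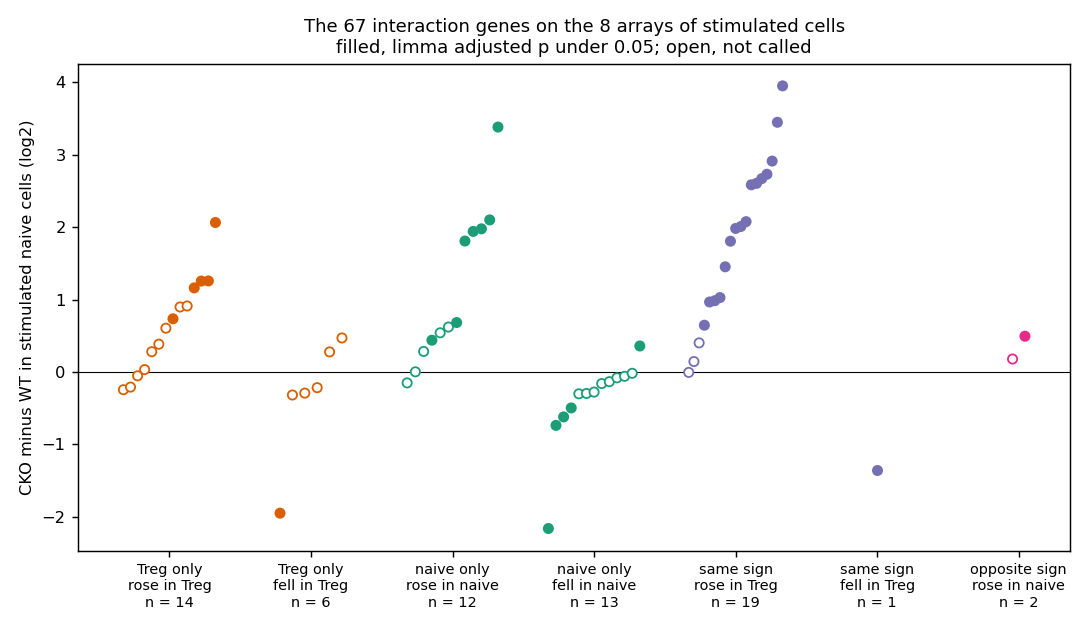
CKO minus WT change on the 8 arrays of stimulated cells (vertical axis, log2) for the 67 genes, by class and by the direction of the change that defined it. Filled points were called. In the class of same sign 16 of 19 risers are filled, and among the 13 genes that fell in naive cells alone 4 fell again and 1, Tgfbr2, rose.

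Few genes of the lists for this tissue had a called difference. The lists hold members known from earlier results of these data. Of 26 genes of the Treg signature, 3 were called (0.41% of all genes tested were), all with the change in Treg below that in naive cells (Plagl1, Nrp1 and Il2ra), and the list's median difference was -0.77 against 0.042 over all genes tested. In naive cells 7 of the 26 rose and 4 fell, where 7.81% and 11.1% of all genes did, and in Treg none rose and 5 fell, where 2.59% and 1.85% did. Ctla4, an inhibitory receptor, rose 2.94-fold in naive cells and changed by 0.21 in Treg, but the difference was not called (-1.34 ± 0.40, adjusted p = 0.165). It was called with array weights (-1.82, adjusted p = 0.0225) and without WT naive replicate 4 (-1.56, adjusted p = 0.0415). Gpr83, an orphan receptor of Treg, fell 5.70-fold in naive cells and 2.66-fold in Treg (difference 1.10 ± 0.28, adjusted p = 0.0967). That difference was called with array weights (1.02, adjusted p = 0.0388) and without WT naive replicate 3 (1.28, 0.0339) or 4 (1.18, 0.042). Ikzf2, the Treg factor Helios, changed by -0.70 in Treg and by -0.07 in naive cells, neither called. Markers of other cells moved beside this list. The median difference was -0.79 over 19 B cell markers and -0.60 over 16 markers of CD8, NK and unconventional T cells, with none called. The summed level of the 16, relative to the array's 75th percentile, was 24.2 to 48.9 in WT naive, 39.1 to 110 in CKO naive, 9.80 to 16.7 in WT Treg and 8.94 to 17.7 in CKO Treg cells. Their part in the naive changes was not tested.

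Of 22 genes of the TGF-beta pathway 2 were called (0.41% of all genes tested were), in opposite directions: Tgfbr2 above and Itgb8 below. Tgfb3, a ligand, rose 7.69-fold in Treg and 8.33-fold in naive cells and so did not separate them (difference -0.12 ± 0.41, adjusted p = 0.918). Pmepa1, a target gene that restrains the pathway, fell 6.66-fold in naive cells and changed by -0.93 in Treg (adjusted p = 0.124), with a difference of 1.81 ± 0.45 (adjusted p = 0.0841). It was called with array weights (2.01, adjusted p = 0.00744) and without WT naive replicate 4 (2.10, adjusted p = 0.0146). Ifng, the effector cytokine, fell 3.1-fold in Treg (adjusted p = 0.0187) and changed by 0.83 in naive cells (adjusted p = 0.147). Its levels were 0.11 to 1.07 in WT Treg and -1.34 to -0.93 in CKO Treg, and the naive genotypes overlapped. The difference of -2.46 ± 0.57 missed the threshold (adjusted p = 0.0645). It was called after quantile normalization (-2.71, adjusted p = 0.0272), with normexp correction (-1.89, 0.0271), on the authors' values (-2.71, 0.0269), with arrays centred on probes above background throughout (-2.51, 0.0499), with a signal floor (-2.46, 0.0399), with array weights (-2.54, 0.0289) and with slide as a random block (-2.46, 0.0387). Without WT naive replicate 4 it was -2.69 (adjusted p = 0.0223) and without CKO naive replicate 3 -2.76 (0.0272), both called.

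Several genes that rose or fell far in both cell types had no called difference in the fit reported here. Tdrd9, a germline helicase, rose 106-fold in naive cells and 340-fold in Treg with a difference of 1.69 ± 1.02 (adjusted p = 0.457). Its WT levels ran from -3.66 to -0.26 in naive cells and from -4.63 to -1.83 in Treg. Trim24, a relative and partner of Trim28, rose 8.93-fold and 9.44-fold (difference 0.08 ± 0.19). Cbr3, a carbonyl reductase, and Gstt3, a glutathione S-transferase, rose 23.3-fold and 22.7-fold in naive cells and 55.8-fold and 34.6-fold in Treg, with differences of 1.26 and 0.61 (adjusted p = 0.522 and 0.486). The difference for Gstt3 was called with normexp correction (1.35, adjusted p = 0.000746) and with a signal floor (1.33, adjusted p = 0.0238). Penk, Areg and Rnf43 fell in both cell types, with differences of -0.85, -1 and -0.75 (adjusted p = 0.597, 0.395 and 0.384). With normexp correction Penk (-1.66, adjusted p = 0.0135) and Areg (-1.45, adjusted p = 0.00235) were called.

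No gene was called among 287 genes named Zfp, where 0.41% of all genes tested were. An unadjusted p under 0.05 in limma's test was found for 41 of them, near the share of all genes (2264 of 16350). In Treg 33 of the 287 rose and 3 fell, and in naive cells 34 rose and 20 fell, where 2.59%, 1.85%, 7.81% and 11.1% of all genes did. None was called among 16 germline and meiosis genes (1 at an unadjusted p under 0.05), 40 of the cell cycle (1), 36 of ribosome biogenesis (3), 24 of cholesterol synthesis (1), 21 of glycolysis (4), 36 interferon-stimulated genes (3), 26 of naive cells and quiescence (3) and 16 effector cytokines (4). Over all 16350 genes 2264 had an unadjusted p under 0.05. One gene was called in each of 5 other lists, where 0.41% of all genes tested were: Il2ra among 26 of T cell activation and 26 IL-2 and STAT5 targets, Rora among 30 of effector and memory CD4 cells, Nrp1 among 22 inhibitory receptors and anergy genes, and Plagl1 among 21 imprinted genes. Il2ra, Nrp1 and Plagl1 are the same genes already counted in the Treg signature, so these lists overlap.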

How the data were processed

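RNA of 24 samples was measured on 1-colour Agilent arrays, 4 in each of 6 groups. Scanner files gave the deposited signal intensity of each probe, background-subtracted by Agilent Feature Extraction 9.5, per the submitters' processing notes and the file headers. The authors' deposited table of normalized values, whose processing is not given in the sources used here, served as an alternative only, on the log2 scale. Intensities were divided by each array's 75th percentile and put on a log2 scale. Of 41174 probes, 25059 were well above background on at least 3 of 4 arrays of a group and were kept, and the brightest kept probe stood for each of 16350 genes. One linear model with a mean for each group, in limma 3.58.1 (lmFit and eBayes, R 4.3.3), took in every array. P-values were adjusted by Benjamini-Hochberg over all genes, separately for each comparison. The difference between Treg and naive cells was a contrast of 4 means. The script was tested on simulated data. A fold against a group with no array well above background is a bound, the bright group's mean over the lowest signals that the dim arrays told from background.

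Named genes were, per class and direction, up to 6 with the largest difference readable in all 4 groups, up to 3 with a group not above background, up to 4 called members of each gene list, and a fixed set. The 15 called genes with provisional names were left out. The genes read for T cell stimulation were added after values were seen. The genes and lists were chosen with earlier results of these data known. Promoters and gene order are RefSeq's on GRCm38.p6. The build of the probes' coordinates is not given in the sources used here, and none are printed. Alternatives covered normalization, background, filters, probes per gene, array weights, blocks and leaving out each array. With 4 arrays per group the median SE of a difference was 0.313.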

Additional observations from a re-analysis of the deposited data

Results flagged for a closer look

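The difference between the cell types was itself tested, and 67 genes passed: their change after Trim28 loss was not the same in Treg and naive cells.

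Single arrays stood apart from the other 3 of their group in 14 of 386 groups of values examined (3.63%), by a gap to the nearest array, as a share of the group's range, above Dixon's 95% critical value. Chance marks about 1 in 20 groups. In WT Treg replicate 1, Kcnmb4 read 0.46, Setdb1 -1.60, Trim24 2.71, Trim33 (a relative of Trim28) 3.03 and Cd4 -0.82. In WT Treg replicate 3 Cavin1 read -0.82, and in WT Treg replicate 4 the mean of the germline and meiosis genes was -2.95. In WT naive replicate 4 Setdb1 read -2.24 and Tfrc, the transferrin receptor, -1.68. In CKO naive cells, Zscan12 read 1.07 in replicate 2 and Acadm 4.72 in replicate 3. In CKO Treg, Kif7 read -4.45 in replicate 1, and Krt86 -0.15 and Ctla4 3.69 in replicate 3.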

How the results depend on the processing

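All 67 differences kept their sign under every alternative that tested them, except that with a signal floor only 61 did. Of the 67, 49 stayed called without each array in turn and 30 of them also in every other setting that tested them. The count of 67 was 102 after quantile normalization, 183 with normexp correction, 102 on the authors' values, 25 with only probes above background on all 16 arrays, 244 with a signal floor, 894 with array weights, 102 with slide as a random block, and 53 to 389 leaving out 1 array. Without a filter on dim probes the median difference over all genes moved from 0.041 to 0.202. In the order of quantile normalization, normexp, authors' values, probes on all 16 arrays, floor, weights and random slide block, the genes called in Treg alone (20) numbered 51, 86, 51, 8, 103, 81 and 36, and 35 with slide as a fixed block (19 to 65 leaving out 1 array). The genes called in naive cells alone (25) numbered 62 with normexp, 9 with probes on all 16 arrays, 109 with a floor, 16 with 16 arrays fitted, 731 with weights and 39 with the random slide block (14 to 286). The 2 opposite genes became 6 under quantile, normexp and authors' values, 0 without a filter, 1 with probes on all 16 arrays, with 16 arrays fitted or with a fixed slide block, and 8 with weights (1 to 6). The 20 of the same sign became 13 without a filter, 7 with probes on all 16 arrays and 43 with weights (13 to 30). The 3092 calls in naive cells became 1843 without a filter and 6567 with weights (1388 to 4601), and the 725 in Treg stayed within 1.5 times (581 to 771). The 3973 calls in stimulated cells became 2371, 2409, 2368, 2539 and 7377 under quantile, normexp, authors' values, no filter and weights. The causes were not tested.

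With the replicate number as a block, 108 genes were called (66 of the 67 among them), 35 in Treg alone and 45 in naive cells alone. The labels do not say what a number stands for. In all 4 groups replicate 2 lay on slide 3 and replicate 4 on slide 6, so for these numbers slide and sample cannot be told apart. Over all 4 groups 15 of 24 same-numbered pairs correlated above 0.1 (-0.29 to 0.492), short of every pair, so the fit without the block was kept. Between CKO naive and CKO Treg all 4 pairs did (0.367 to 0.492), 12 of 16 arrays correlated best with their own number, and arrays of different number had a mean correlation of -0.067, a hint from the data that some numbers may mark shared samples.

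Among genes with no called difference, the sign turned for Cd8a (0.01 with normexp, 0.09 with a floor, -0.97 to 0.13 leaving out 1 array), Tgfb3 (0.15 after quantile normalization and on the authors' values, -0.42 to 0.17), Trim24 (-0.38 over its probes' mean), S1pr1 (-0.21 to 0.12) and Trim28 (-0.17 to 0.07). Differences in signals not above background, as for Cgnl1, Ntng1, Itgb8 and Adad2, are fitted values and not measured folds.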
